A study of Mus musculus with 16 samples.

Results

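The response to proteasome inhibition was measured in mouse embryonic fibroblasts (MEF) that lack CHOP. The members are 8 of the 16 arrays in the series, chosen by their titles: 4 from CHOP-/- cells given MG132 at 1 µM for 8 hours and 4 from untreated CHOP-/- cells. The other 8 arrays hold wild-type fibroblasts with and without the same treatment, 4 of each, and serve here only to show where the knockout response differs. Both knockout groups lack CHOP and grew in DMEM with serum, with 1 array for each culture plate. All 11457 genes that passed a filter on low signals were tested in these cells. The labels of the untreated plates differ: the treatment field gives none, and the sample description names DMSO, the solvent of MG132. If those plates had no DMSO, any effect of the solvent is part of the comparison. Strain, embryo of origin and whether the cells were immortalised are unstated in the labels, so p-values measure the spread between plates, which may be technical. The label of embryonic fibroblast was checked against its markers: 17 of the 21 fibroblast identity genes on the array passed the filter. Of all 18193 genes on the array 11457 passed it, so this count checks the label only in part. Among the identity genes, the mean untreated signals of Vim, Col1a2 and Prrx1 were 48075, 27691 and 8151, where the median of an array averaged 97.5. Col1a2 and Prrx1 were chosen after their values were seen.

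The proteasome degrades ubiquitin-tagged proteins in a 20S core capped by 19S regulatory particles. MG132 is a peptide aldehyde that blocks the core, so that short-lived and misfolded proteins build up. Cells are known to answer with heat shock proteins through HSF1, with new proteasome subunits through NRF1 (Nfe2l1), with antioxidant genes through NRF2, and with the integrated stress response (ISR), in which phosphorylation of eIF2 alpha favours translation of the transcription factor ATF4. Ddit3 encodes CHOP, a transcription factor downstream of ATF4 and is known for its part in stress-induced cell death.

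Values are MAS5 signals in scaled units. A change is the difference in log2(signal + 16) between MG132 and untreated, with its standard error (SE), so 1 is a 2-fold rise and low signals are understated. "Rose" and "fell" mean an adjusted p under 0.05 from limma, adjusted over all tested genes by Benjamini-Hochberg (BH). With 4 arrays a group, the tests are between plates. Of the 11457 genes, 2942 rose and 4205 fell, which is 25.7% and 36.7%, and together 62.4%, and 345 and 638 changed at least 2-fold (3.01% and 5.57%). For 58.3% of the genes the 4 treated arrays did not overlap the 4 untreated ones. The median change of all genes was -0.07. Replacing the authors' scaling by centring on the median of the tested genes, an alternative chosen after seeing the data, raised every change by about 0.14, and then 3993 genes rose and 3167 fell, so that 55.8% of the calls were rises instead of 41.2%. Changes smaller than about 0.14 therefore have no settled direction, and gene groups are read against the median of all genes. Quantile normalisation raised the median of all genes by 0.04 but lowered some groups of high signal. The 19S proteasome subunits, for example, went from a median of 0.43 to 0.26. For such genes changes somewhat above 0.14 are unsettled too. Arrays of 1 knockout group correlated at 0.989 to 0.992 across genes. The upper quartile of the signals averaged 867.6 in untreated and 796.8 in treated arrays, and the 3' to 5' ratio of Actb 1.15 and 1.21 (exact permutation p = 0.0286 in each, two-sided, the smallest that 4 against 4 allows, BH adjusted 0.0571). Their part in the results was not tested.

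**Figure D1:**
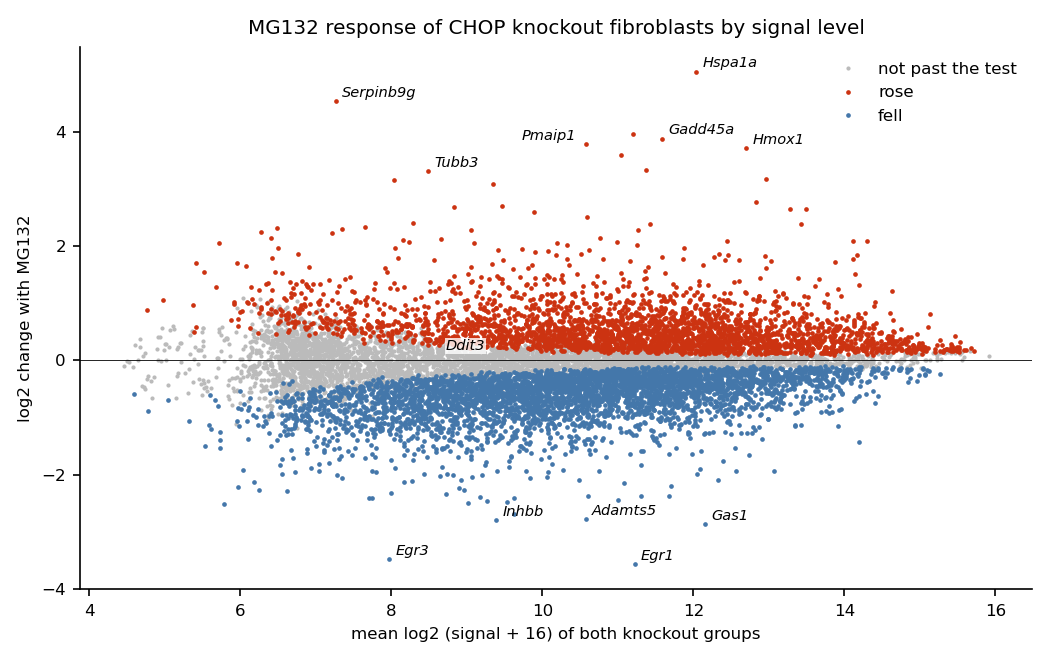
Each point is 1 of the 11457 genes. The horizontal axis is the mean log2(signal + 16) of both knockout groups and the vertical axis the log2 change with MG132. Red genes rose, blue genes fell and grey genes did not pass the test. Hspa1a has the highest change, 5.06, and Egr1 the lowest, -3.57, while Ddit3 lies near 0.

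Ddit3, the deleted gene, stayed low with MG132. Its signal was 382, 352, 393 and 343 on the untreated and 429.8, 394, 418 and 342 on the treated knockout arrays, a change of 0.10 (SE 0.09, adjusted p = 0.328). The groups overlapped. In wild-type cells the signal was 887, 1054, 998 and 1127 untreated and 8181, 6891, 8087 and 7739 with MG132, above every knockout array. Under quantile normalisation and under centring on tested genes the small knockout change passed the test, at 0.25 and 0.24. Whether this probe set lies inside the deletion is unstated in the labels, so it checks the labels only in part.

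Cytosolic chaperones were among the strongest rises. Of 19 genes of the HSP70, HSP110 and HSP90 chaperones and their cofactors, 17 rose and 1 fell, with a median change of 0.61. Hspa1a, an inducible HSP70, had signals of 738, 710.2, 745 and 658 on the untreated and 23059, 23746, 25960 and 24171 on the treated arrays. Its change of 5.06 (SE 0.07, adjusted p = 8.9e-22) was the largest of all genes tested, and the groups stood far apart. Its neighbour Hspa1b started higher, at a mean of 9818, and reached 41648. The transcripts of this pair are near-identical, so the array may not separate them. Hsph1, an HSP110 that recharges HSP70, went from 9666, 9629.9, 9272 and 10172 to 34867, 34301, 35080 and 34688, a change of 1.84 (SE 0.05). The constitutive Hspa8 and Hsp90aa1 rose less, by 0.32 and 0.58, from signals that were already 42268 and 28875. The member that fell was Hsbp1, which binds HSF1, at -0.30, a call lost by averaged probe sets (-0.04).

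Of 12 HSP40 co-chaperones, which deliver clients to HSP70, 9 rose and 1 fell (median 0.41). Dnajb1 had signals of 8585, 7742, 8568 and 7937 untreated and 27787, 26621, 27435 and 27121 treated. Dnaja4 rose by 1.93 (SE 0.07), less than the 3.20 of wild-type cells (difference -1.27, adjusted p = 2.6e-08), and Dnajb14, an HSP40 of the ER membrane, fell by 1.13. The small heat shock proteins and BAG proteins were split, with 5 of 11 higher and 2 lower. Hspb1, the main inducible small heat shock protein, went from 4641, 4332, 4813 and 4628 to 29547, 28532, 28544 and 29081 (change 2.65, SE 0.06). Cryab, Bag3, which couples HSP70 to autophagy, and Hspb8 rose by 1.81, 1.54 and 1.12, whereas Hspb6 fell by 1.00. In the CCT chaperonin list, which folds actin and tubulin, 7 ring subunits rose by 0.23 to 0.36 and Tcp1 did not pass (0.11), though it did in the fit of the knockout arrays alone (0.11) and with centring on all probe sets (0.15). The whole list had 7 rises and 4 falls (median 0.23), but 5 and 5 by quantile normalisation (median 0.05). Prefoldin subunits, which pass clients to CCT, went the other way, with Pfdn5 at -0.57 (-0.13 and not past the test by averaged probe sets), Pfdn1 at -0.50, Pfdn4 at -0.38 and Vbp1 at -0.26 (-0.12 and not past the test with centring on tested genes).

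**Figure D2:**
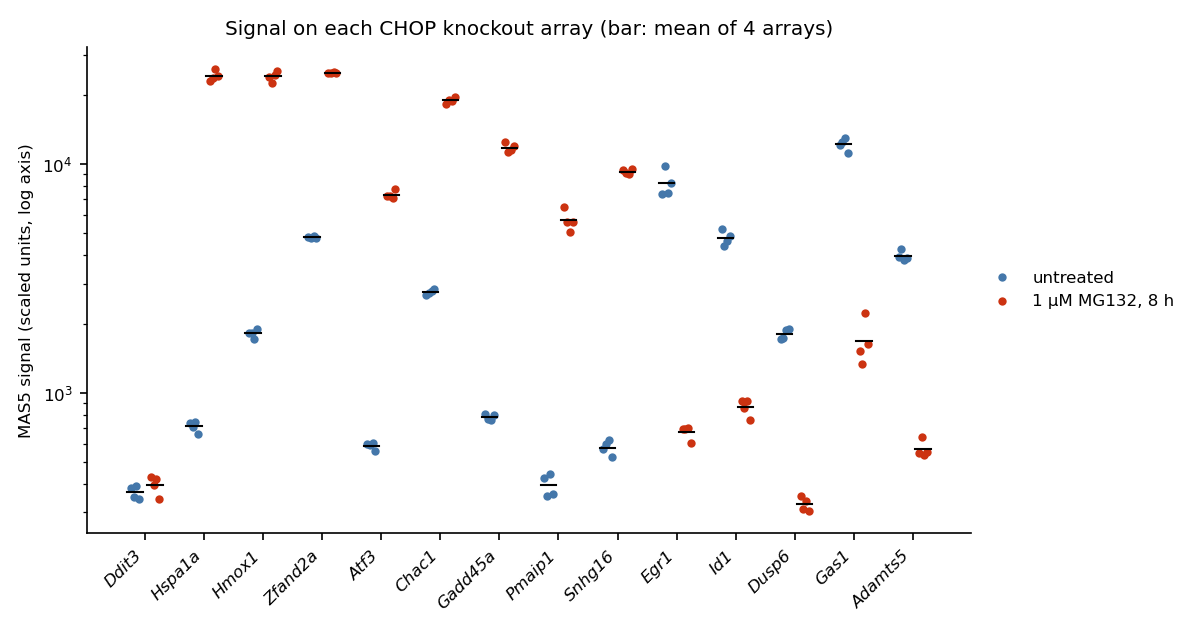
Points are the signals of single knockout arrays on a log axis, blue untreated and red with MG132, and bars are means of 4 arrays. Hspa1a, Hmox1, Zfand2a, Atf3, Chac1, Gadd45a, Pmaip1 and Snhg16 lie higher with MG132 and Egr1, Id1, Dusp6, Gas1 and Adamts5 lower, while the groups of Ddit3 overlap. All but Ddit3 were named by a rule that required no overlap.

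Subunits of the proteasome rose by small amounts, all under 2-fold. Of 18 subunits of the 19S regulatory particle, 17 rose and 1 fell, with a median of 0.43. Psmc4, one of its ATPases, went from 11008, 10330, 13782 and 10049 to 18090, 20455, 21094 and 21539, a change of 0.85 (SE 0.08). The ubiquitin receptor Psmd4 rose by 0.71 and Psmd1 by 0.64, and Sem1 fell by 0.15, which is no more than the shift between scalings. Of 14 subunits of the 20S core, 12 rose and 0 fell (median 0.28, 2 not past the test), with Psmb2 at 0.54 the highest, while by quantile normalisation 9 rose and 2 fell (median 0.10). Psmb5, the chymotrypsin-like catalytic subunit and a main target of MG132, did not pass (-0.05, adjusted p = 0.378), but passed as a fall by quantile normalisation (-0.14). Of 15 assembly factors and activators 6 rose and 6 fell. The chaperones of core assembly were on the low side: Pomp at -0.43, Psmg1 at -0.46, Psmg2 at -0.42 and Psmg4 at -0.56, the last not past the test by averaged probe sets (-0.25). Akirin2, which brings the proteasome into the nucleus, rose by 0.71 against 0.08 in wild-type cells (difference 0.63, adjusted p = 1.8e-05). Nfe2l1, the factor for these genes, rose by 0.68 (SE 0.09).

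In the list of ubiquitin genes, the unfoldase p97 and its cofactors, and ZFAND proteins, 13 of 18 rose and 1 fell (median 0.51). Zfand2a, an arsenite-inducible partner of the proteasome, had signals of 4793, 4760, 4831 and 4760.5 untreated and 25036, 24888, 25234 and 24860 treated, a change of 2.38 (SE 0.04). Its relatives Zfand5 and Zfand2b rose by 1.15 and 1.14, more than in wild-type cells (differences 0.53 and 0.87, adjusted p = 4.1e-06 and 4.6e-05). The p97 cofactors Nploc4 and Ufd1 rose by 0.97 and 0.89, and p97 itself (Vcp) by 0.28. E1 and E2 enzymes (10 of 22 higher, 6 lower) and deubiquitinating enzymes (14 of 30 higher, 6 lower) had medians of 0.06 and 0.09. Among the latter Usp3 rose by 1.53 and Uchl1 by 1.38, and Usp46 fell by 1.06.

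Autophagy receptors carry ubiquitinated cargo to the lysosome. Of 12 receptors and LC3 family genes 9 rose and 3 fell (median 0.48). Sqstm1, which encodes the receptor p62, went from 8694, 8816, 8465 and 8507 to 37084, 35424, 36271 and 37856, a change of 2.09 (SE 0.05), and Gabarapl1 rose by 1.39. Of 20 genes of autophagy initiation and conjugation, 7 rose and 5 fell (11 and 4 with centring on tested genes), with Atg12 at 1.63 and Atg14 at 1.43 against Ulk2 at -1.24. In the lysosomal list 18 of 25 rose and 3 fell (median 0.40). The V-ATPase subunit Atp6v1h and the protease Ctsd rose by 0.97 and 0.80, and Gusb, beta-glucuronidase, fell by 1.23.

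Targets of the ISR and ATF4 rose in these cells. Of 31 tested, 29 rose and 1 fell, with a median of 1.12, the highest of the 64 lists. Atf3, a stress-induced repressor, had signals of 599.7, 589.7, 603 and 557 untreated and 7216, 7236, 7075 and 7792 treated, a change of 3.61 (SE 0.06, adjusted p = 2.8e-20). Chac1, which degrades glutathione, went from 2674, 2734, 2797 and 2843 to 18225, 19046, 18877 and 19655 (change 2.77, SE 0.08). Fgf21, a secreted metabolic hormone, went from 99.7, 63.1, 51.1 and 76.3 to 817, 764, 732 and 732 (change 3.16, SE 0.26). These 3 were named by a rule that required no overlap between the groups, which 58.3% of all genes also showed.

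Feedback arms of the ISR rose as well. Ppp1r15a (GADD34), which leads to dephosphorylation of eIF2 alpha and is described as a CHOP target, rose by 2.27 (SE 0.08), and Trib3, a pseudokinase also described as one, by 2.15 (SE 0.07). The wild-type values were 2.14 and 2.29, and neither difference passed the test (adjusted p = 0.421 and 0.336, differences 0.14 and -0.14, SE 0.12 and 0.10). Atf4 rose by 0.56 from a mean of 16953, but by averaged probe sets it gave 0.17 and did not pass. The member that fell was Trib1 (-0.60, not past the test at -0.35 by averaged probe sets), and Atf5 did not pass (0.07).

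20 of the 31 ISR genes differed from wild-type cells, 12 with a higher and 8 with a lower response in the knockout, where 14.1% of all genes differed in each direction. Vldlr, a lipoprotein receptor, had 454, 309.7, 459 and 453 untreated and 1669, 1666, 1757 and 1483 treated (change 1.95, SE 0.09), against 0.08 in wild-type cells (difference 1.87, adjusted p = 2.7e-09). Wild-type Vldlr lay at 4677 to 5092 untreated and 4921 to 5168 treated, above every knockout array. Fgf21, the ERAD gene Herpud1 and Ddit4, an inhibitor of mTORC1, also rose more, with differences of 1.73, 0.68 and 0.82. Wild-type Fgf21 was near the background, at 10.0 to 40.5 untreated and 57.3 to 122 treated, where changes are understated. Slc7a11, Chac1 and Atf3 rose less, with differences of -1.13, -0.91 and -0.76 (adjusted p = 5.8e-05, 3.2e-06 and 1.9e-06). Wild-type Chac1 lay at 791 to 1109 untreated and 12917 to 13584 treated, below the knockout in each state. Treated Slc7a11 and Atf3 lay higher in wild-type cells.

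Several of these genes carry the same 8 letters before their start. ATF4 and its partners bind C/EBP-ATF response elements (CARE), here searched as TGATGNAA on both strands of RefSeq promoters of 300 bases (250 before to 50 after the start, build GRCm38.p6). A match was found in 3.97% of all promoters, in 2.19% of those of tested genes, in 6.23% of those of genes at least 2-fold higher and in 0.96% of those of genes at least 2-fold lower. In the ISR list 11 of the 26 genes with a promoter in the table held it. Stretches before the start are shown for 7 of them, and for 2 further genes that rose at least 2-fold, the stress gene Gadd45g and the tubulin gene Tubb3, so that the shared letters can be compared. Capitals mark the match, and each is written 5′ to 3′ on the strand of the gene. No match overlapped a match of another motif searched.
Atf3, chr1:191183412-191183467, minus strand: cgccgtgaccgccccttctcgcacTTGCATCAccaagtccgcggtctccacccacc
Chac1, chr2:119351025-119351080, plus strand: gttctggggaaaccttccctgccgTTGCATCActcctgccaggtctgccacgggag
Fgf21, chr7:45615598-45615653, minus strand: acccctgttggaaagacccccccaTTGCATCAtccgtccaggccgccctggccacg
Slc7a11, chr3:50443629-50443703, minus strand: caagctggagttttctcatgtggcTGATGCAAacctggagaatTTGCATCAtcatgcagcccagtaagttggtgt
Nupr1, chr7:126625549-126625604, minus strand: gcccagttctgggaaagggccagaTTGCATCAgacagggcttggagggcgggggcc
Herpud1, chr8:94386293-94386348, plus strand: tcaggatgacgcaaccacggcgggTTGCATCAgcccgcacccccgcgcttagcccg
Vldlr, chr19:27216796-27216851, plus strand: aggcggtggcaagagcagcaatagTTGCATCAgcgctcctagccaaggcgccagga
Gadd45g, chr13:51846550-51846605, plus strand: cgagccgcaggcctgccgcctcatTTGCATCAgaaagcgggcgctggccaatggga
Tubb3, chr8:123411467-123411522, plus strand: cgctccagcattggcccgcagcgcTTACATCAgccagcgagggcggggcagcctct
Slc7a11 holds 2 matches in opposite orientation, and Tubb3 differs from the others inside the match. A match is a description of letters and not a measured binding site.

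Transcripts of genes that handle amino acids rose in the same cells. Aminoacyl-tRNA synthetases of the cytosol load tRNAs with amino acids, and 15 of 19 rose and 0 fell (median 0.57), led by Cars at 1.32 and Sars at 0.94. Vars and Hars did not pass, at -0.12 and -0.04, but Hars passed as a fall by quantile normalisation (-0.12). Of 14 amino acid transporters 9 rose and 3 fell. The cystine transporter Slc7a11 had 147, 181, 152 and 172 untreated and 1234, 1063, 1100.2 and 1123 treated (change 2.68, SE 0.12), and the glycine transporter Slc6a9 rose by 2.07. In amino acid synthesis 12 of 14 rose, with Cth, which makes cysteine, at 1.61 and Psph, the last enzyme of serine synthesis, at 1.26, and Mthfd1 fell by 0.55.

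ER chaperones rose by small amounts. Of 22 ER chaperones and folding enzymes 13 rose and 4 fell (median 0.33), with 1 at least 2-fold, Dnajb9 at 1.74 (SE 0.05). Hspa5 (BiP), the main ER HSP70, went from 25515, 27226, 29707 and 25639 to 46704, 46030, 49376 and 47462 without overlap, a change of 0.81 (SE 0.07). Erp29 and Txndc5 fell, by 0.90 and 0.78. Herpud1 went from 4042, 4184, 4121 and 4316 to 14865, 14343, 14884 and 15061 and led the ER-associated degradation list, in which 9 of 16 rose and 4 fell. Among sensors and factors of the unfolded protein response 4 of 14 rose and 6 fell. Xbp1, whose spliced mRNA encodes the factor of the IRE1 branch, rose by 1.10 (SE 0.05) against -0.07 in wild-type cells (difference 1.17, adjusted p = 2.4e-10). Whether the probe set separates its spliced and unspliced forms was not tested.

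The ER stress element, searched on both strands, marks promoters read by ATF6 and XBP1. It was found in 0.119% of all promoters and 0.118% of those of tested genes, and in 8 of the 19 ER chaperone genes with a promoter in the table: Calr, Canx, Creld2, Dnajc3, Ero1b, Hsp90b1, Hspa5 and Pdia6. Of these, Hspa5, Canx, Ero1b, Hsp90b1, Dnajc3 and Creld2 rose, by 0.81, 0.44, 0.39, 0.35, 0.32 and 0.22, and Calr (0.16) and Pdia6 (-0.02) did not pass, though Calr passed under 6 alternatives, among them the fit of the knockout arrays alone (0.16) and averaged probe sets (0.18). The stretches of 3 of these genes are shown with the match in capitals. The search fixed the first and last 5 letters and left the middle free.
Hspa5, chr2:34772001-34772067, plus strand: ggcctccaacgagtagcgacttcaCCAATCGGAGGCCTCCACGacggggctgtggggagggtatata
Dnajc3, chr14:118937803-118937869, plus strand: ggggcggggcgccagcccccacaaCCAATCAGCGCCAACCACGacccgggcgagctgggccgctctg
Canx, chr11:50325776-50325842, minus strand: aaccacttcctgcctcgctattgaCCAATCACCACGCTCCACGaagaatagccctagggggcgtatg
No promoter of a gene that changed at least 2-fold held the element, which says only that these letters are not in those windows.

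NRF2 targets, which limit oxidative damage, rose in 19 of 23 members and fell in 2 (median 0.65). Hmox1, heme oxygenase, went from 1829.5, 1821, 1719.7 and 1899.7 to 24024, 22682, 24547 and 25456, a change of 3.72 (SE 0.05). This exceeded the 2.80 of wild-type cells (difference 0.92, adjusted p = 1.4e-08). Osgin1 and the sulfiredoxin gene Srxn1 rose by 2.60 and 1.97, and Gclc, which starts glutathione synthesis, by 1.05. Gstp1 fell by 0.38, and the thioredoxin gene Txn1 by 0.19, a call lost with averaged probe sets (-0.23) and with centring on tested genes (-0.05). The antioxidant response element TGACNNNGC was found in 16.6% of promoters of genes that rose at least 2-fold, in 15% of those that fell at least 2-fold and in 14% of those of tested genes. The metallothioneins Mt2 and Mt1, which bind zinc and copper, rose by 1.36 and 0.93.

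Death and growth-arrest genes changed in a few members strongly. Pmaip1 encodes NOXA, which blocks MCL1 and whose protein is itself degraded by the proteasome. Its signal was 423, 355, 441 and 362 untreated and 6490.2, 5598, 5032 and 5551 treated, a change of 3.79 (SE 0.07, adjusted p = 3e-19). Treated and untreated arrays lay far apart. Of the 12 BCL2 family genes 4 rose and 7 fell. Bcl2l11 (BIM) rose by 0.36, less than in wild-type cells (1.42, difference adjusted p = 0.00031), and this rise did not pass without untreated array 3 or 4 (0.32 in each) or treated array 1 or 3 (0.26 and 0.31), without suffixed probe sets (0.20) or without the variance trend (0.36). The survival genes Bcl2 and Bcl2l1 fell by 0.89 and 0.57. Of 21 death receptor and caspase genes 9 rose and 6 fell. Tnfrsf10b, the mouse TRAIL receptor and a described CHOP target, rose by 0.64 (SE 0.07) against 1.81 in wild-type cells (difference -1.17, adjusted p = 5.9e-08). Tnfrsf22, Tnfrsf23 and Casp4 also rose less, with differences of -1.54, -1.75 and -1.36. Wild-type Casp4 was near the background, at 2.93 to 6.66 untreated and 65.9 to 152 treated. In the knockout Casp4 lay at 37.6 to 70.8 untreated and 120 to 180 treated. The caspase inhibitor Xiap fell by 0.91 (-0.30 and not past the test by averaged probe sets).

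Gadd45a, a growth-arrest gene, rose from 804, 768, 759.6 and 804 to 12439, 11303, 11502 and 11924, a change of 3.88 (SE 0.07), close to the 3.81 of wild-type cells (difference 0.07, SE 0.10, adjusted p = 0.671). In the list of p53 targets and GADD45 genes 15 of 24 rose and 6 fell (median 0.50). Cdkn1a (p21) and Mdm2, which limits p53, rose by 1.00 and 1.02. Ei24 fell by 1.15.

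Host genes of small nucleolar RNAs held some of the largest rises. The small RNAs are cut from their introns, and several of the spliced host RNAs are known to be degraded by nonsense-mediated decay, a pathway tied to translation. Of 13 tested, 9 rose and 4 fell (median 0.78). Snhg16 had 566, 596, 621 and 523 untreated and 9416, 9095, 9052 and 9496 treated, a change of 3.97 (SE 0.08), but its other probe set stayed at means of 582 and 636, and the average of both gave 2.05. Snhg12, with 1 probe set, went from 2636, 2592, 2694 and 2587 to 24100, 22892, 23762 and 24976 (change 3.18, SE 0.04). Snhg5, Zfas1, Snhg1 and Gas5 rose by 2.66, 1.78, 1.21 and 0.95, and Snhg3 fell by 0.60. Gas5 turned to -0.94 when probe sets with a suffix for shared sequence were left out. In the list 7 members had a higher response than in wild-type cells and 1 a lower one (14.1% of all genes each way).

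Genes of protein synthesis changed by small amounts. Of 30 ribosome biogenesis factors 17 rose and 4 fell (median 0.15), with Nop14 at 1.31. Of 29 translation initiation factors 18 rose and 3 fell (median 0.17), with the eIF4E inhibitor Eif4ebp1 at 0.62. By quantile normalisation 12 of them rose and 7 fell (median 0.03). Of 28 cytosolic ribosomal protein genes 15 rose and 4 fell (median 0.16), but 3 rose and 8 fell under quantile normalisation (median -0.01), so no direction is given. SR proteins and hnRNPs, which steer splicing, rose in 15 of 22 members and fell in 3 (10 and 6 by quantile normalisation, median 0.10 instead of 0.21), with the kinase Clk1 at 0.78 and Srsf9 at -0.50.

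Clock genes rose together. Of 15 tested 11 rose and 0 fell (median 0.63), and 4 did not pass, among them Arntl (BMAL1) at -0.16 and Dbp at -0.16. Ciart, a repressor of the clock, went from 236, 264, 303 and 240.3 to 1893, 1748, 1683 and 1830, a change of 2.71 (SE 0.10). The repressors Cry1 and Cry2 rose by 1.44 and 1.18. Nr1d1 (REV-ERB alpha) was 0.63 in knockout and -0.78 in wild-type cells (difference 1.41, adjusted p = 0.00018). The labels give the same duration for untreated and treated plates, which is not a clock time of harvest. Whether the plates were harvested at the same hour of the day was not tested.

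Genes of growth factor signalling held some of the deepest falls. EGR factors are immediate early genes switched on by ERK and SRF. Egr1 had signals of 7377, 9834, 7466 and 8289 untreated and 696, 692, 705 and 602 treated, a change of -3.57 (SE 0.09, adjusted p = 9e-18). Egr3 went from 863, 731, 916 and 733 to 38.7, 52.7, 86.8 and 61.0 (change -3.48, SE 0.17), while its other probe set, near the background, stayed at means of 85.2 and 82.9. Of 14 EGR and SRF-linked regulators 0 rose and 9 fell (median -0.63). Nab2, which restrains EGR factors and is induced by them, and the SRF partner Elk3 fell by 1.93 and 1.35. All 3 EGR genes fell less than in wild-type cells, with differences of 1.35 for Egr1, 2.32 for Egr2 and 0.97 for Egr3, and the last turned to -0.11 when probe sets were averaged. These differences go with higher untreated signals in wild-type cells, since treated signals were similar in both genotypes. Wild-type Egr1 lay at 16357 to 20958 untreated and 557 to 636 treated. Egr2 lay at 526 to 853 and 36.5 to 83.5 in wild-type cells, and at 102 to 167 and 39.7 to 98.9 in the knockout. Treated Egr2 and Egr3 were near the background.

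Feedback regulators of ERK fell in 10 of 18 members and rose in 6 (median -0.54). Dusp6, a phosphatase that shuts off ERK and follows its activity, had 1726, 1736, 1889 and 1903 untreated and 355, 311, 337 and 304 treated. Its change of -2.42 (SE 0.08) went with -0.38 in wild-type cells (difference -2.04, adjusted p = 1.7e-10). The Sprouty inhibitors Spry2 and Spry1 changed by -1.73 and -1.57, again more than in wild-type cells (differences -0.51 and -1.32, adjusted p = 0.00578 and 0.00108). Wild-type Spry1 was near the background, at 69.1 to 111 untreated and 50.9 to 95.4 treated, where changes are understated. The ERK-driven factors Etv4 and Etv5 changed by -1.53 and -1.49. In contrast the phosphatases Dusp4 and Dusp1 rose, by 1.90 and 0.76.

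Other early genes were mixed, with 7 of 19 FOS, JUN, IER and MYC genes higher and 5 lower. Fos fell by 1.51 and Jun rose by 0.81, against -0.02 in wild-type cells (difference adjusted p = 1.5e-06). Myc did not pass (0.03). Of 11 Kruppel-like factors 6 rose and 3 fell, led by Klf4 at 1.87 and Klf9 at 1.66. 9 of these 11 had a higher response in the knockout and 0 a lower one (14.1% of all genes each way).

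BMP and TGF-beta signalling showed falls in its direct targets. BMP ligands act through SMAD proteins on the ID genes, which block differentiation factors. Of 36 members 10 rose and 17 fell (median -0.23), 10 of them at least 2-fold. Id1 had 5176, 4381, 4592 and 4837 untreated and 920.2, 855, 917 and 761 treated, a change of -2.44 (SE 0.06), and Id2 and Id3 fell by 1.83 and 1.53. The inhibitory Smad6 and the BMP target Atoh8 fell by 2.09 and 2.23, and the ligands Bmp4 and Inhbb by 1.87 and 2.80. Inhbb, an activin subunit, went from 1553, 1991, 1619 and 1807 to 205, 271, 287 and 192. The signal carriers Smad1 and Smad4 rose instead, by 0.81 and 0.74. The falls of Id1, Id2, Id3 and Bmp4 were larger than in wild-type cells, with differences of -1.09, -0.57, -0.57 and -1.12.

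**Figure D3:**
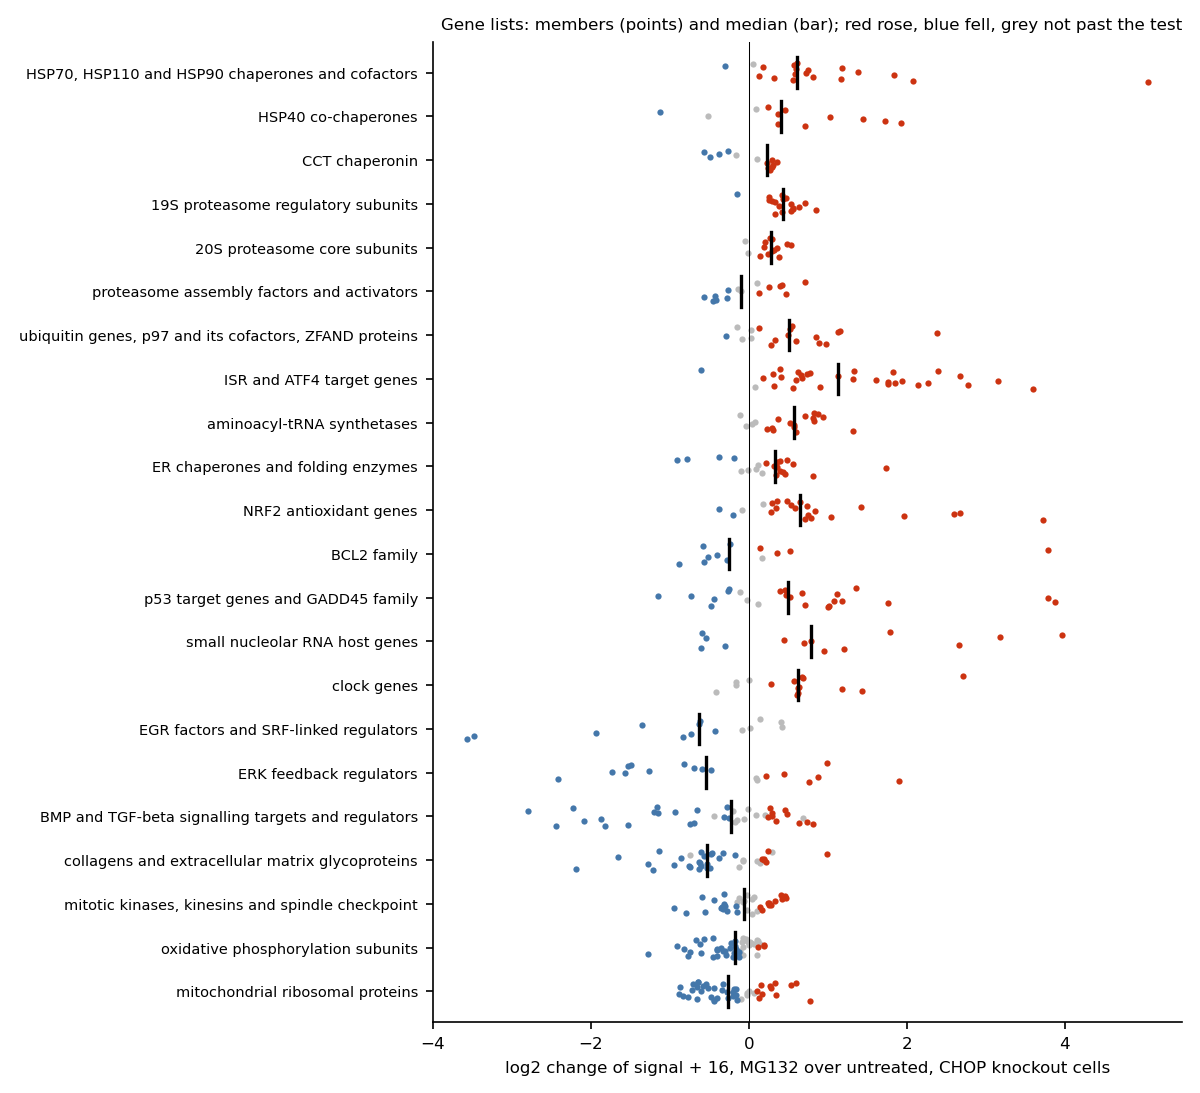
Each row is a gene list, each point the log2 change of 1 member in knockout cells (red rose, blue fell, grey did not pass) and the bar the median of the tested members. ISR and ATF4 targets have the highest median, 1.12, and EGR and SRF-linked regulators the lowest shown, -0.63.

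Matrix genes fell. Of 37 collagens and matrix glycoproteins 6 rose and 23 fell (median -0.53). Col3a1, a fibrillar collagen, went from 6424, 8008, 7160.1 and 6968 to 1479, 1499, 1519 and 1689, a change of -2.19 (SE 0.07), and Thbs1 and Col1a1 fell by 1.66 and 1.21. Nid1, of the basement membrane, rose by 0.99. In this list 16 members had a lower response than in wild-type cells and 1 a higher one (14.1% of all genes each way). Adamts5, an aggrecan-cutting protease, went from 3902, 4232, 3823 and 3898 to 543, 638, 535 and 551 (change -2.77, SE 0.09), and its other probe sets with signals well above the median gave -2.68 and -2.02. Of 20 matrix proteases and inhibitors 2 rose and 10 fell.

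Secreted growth factors fell in 12 of 22 members and rose in 5 (median -0.47). Igf1, insulin-like growth factor 1, had 801, 752, 779.9 and 693 untreated and 199.6, 254, 186 and 149.7 treated (change -1.88, SE 0.36), whereas it changed by 1.36 in wild-type cells (difference -3.23, adjusted p = 8.4e-05). The wild-type signals were low and overlapped, at 30.9, 24.8, 16.2 and 40.0 untreated and 64.8, 29.0, 136 and 253 treated. The falls of Fgf7 (-1.58) and Ereg (-1.37) were larger than in wild-type cells too. Vegfa and Vegfc, which drive vessel growth, rose by 1.30 and 1.12. Gas1, a surface protein of resting cells and a Hedgehog co-receptor, went from 12096, 12478, 12966 and 11198 to 1528, 1338, 2242 and 1634 (change -2.87, SE 0.13). S1pr3, a sphingosine phosphate receptor, and Nrn1, a small membrane-anchored neurite factor, fell by 2.37 each.

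Of 17 fibroblast identity genes, 10 fell and 2 rose, with Prrx2, a mesenchymal homeobox factor, at -1.82 and S100a4 at -1.44. Vim, the intermediate filament of fibroblasts, stayed at means of 48075 and 48498. Of 19 Hox genes 0 rose and 9 fell, or 1 and 5 with centring on tested genes. Markers of other cell types were checked by the filter on low signals, which 3 of 10 macrophage and leukocyte markers, 2 of 7 endothelial and 5 of 9 fat, cartilage and bone markers on the array passed. More of the neural and muscle markers (10 of 14) and of the epithelial and epidermal ones (11 of 19) passed it. Of these 5 lists, 2, 1, 1, 2 and 4 members rose and 0, 0, 0, 2 and 2 fell, and their part in the results was not tested. Among them Kdr, a VEGF receptor, changed by 1.86 (SE 0.42) from a mean of 43.9 to 181. Tubb3, known as a neuronal tubulin, went from 79.5, 63.8, 107 and 152 to 1033, 985, 1149.6 and 1217 (change 3.31, SE 0.18), while the neuronal marker Rbfox3 lay at means of 80.3 and 49.1 and did not pass. Bulk RNA cannot tell fewer cells of a type from less RNA per cell.

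Genes of the entry into the cell cycle fell, and mitotic genes were split. Ccnd1, cyclin D1, which carries growth signals into G1, went from 8382, 8437, 8788 and 8137 to 1892, 2202, 2282 and 2035, a change of -2.00 (SE 0.06), and Ccnd3 fell by 1.30, but gave -0.37 by averaged probe sets and then did not pass. Of 24 G1 regulators 4 rose and 15 fell (median -0.28). Of 35 mitotic genes 11 rose and 14 fell (median -0.07, but 0.08 with centring on tested genes), with Ccnb2 at -0.95, Aurkb at -0.79 and Ndc80 at 0.47. 15 of these 35 had a higher response than in wild-type cells and 0 a lower one (14.1% of all genes each way). Among the 15 were Plk1 (-0.56 against -1.19) and Birc5, the survivin gene (-0.30 against -0.89). Of 38 replication genes 16 rose and 8 fell, and the thymidine kinase gene Tk1 fell by 1.26.

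Mitochondrial genes were mostly lower by small amounts. Of 49 subunits of oxidative phosphorylation 3 rose and 29 fell (median -0.17), the largest fall being that of Ndufb3, in complex I, at -1.28. Of 45 mitochondrial ribosomal proteins 11 rose and 29 fell (median -0.26), with Mrpl34 at -0.89 and Mrps31 at 0.59. 13 of the latter had a lower response than in wild-type cells and 0 a higher one (14.1% of all genes each way). In contrast the mitochondrial protease Lonp1 and the chaperone cofactor Grpel2 rose by 0.76 and 0.96. With centring on tested genes, 9 and 17 members of the first list and 12 and 21 of the second rose and fell, and by quantile normalisation 0 and 41 of the first and 8 and 28 of the second. Under centring on all probe sets, lower responses over all genes went from 1615 to 712, and the 13 were not recounted. In the list of cholesterol synthesis and uptake, 14 of 22 genes rose and 4 fell (median 0.38), with Cyp51 at 1.21 and Dhcr7 at -1.35.

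Most of the response was shared with wild-type cells. Of the 345 genes that rose at least 2-fold in the knockout, 300 also rose in wild-type cells, and of the 638 that fell at least 2-fold, 536 also fell there, where 27.1% and 36.8% of all genes rose and fell. The difference between both responses passed the test for 3235 genes (28.2%), 1620 higher and 1615 lower in the knockout, and was at least 2-fold for 119 and 260 (1.04% and 2.27%). Under centring on all probe sets the lower count was 712. Untreated, 3270 genes were higher and 3071 lower in knockout than in wild-type cells by the same test, 613 each way at least 2-fold. How far unequal untreated signals enter the differences between responses was not tested.

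**Figure D4:**
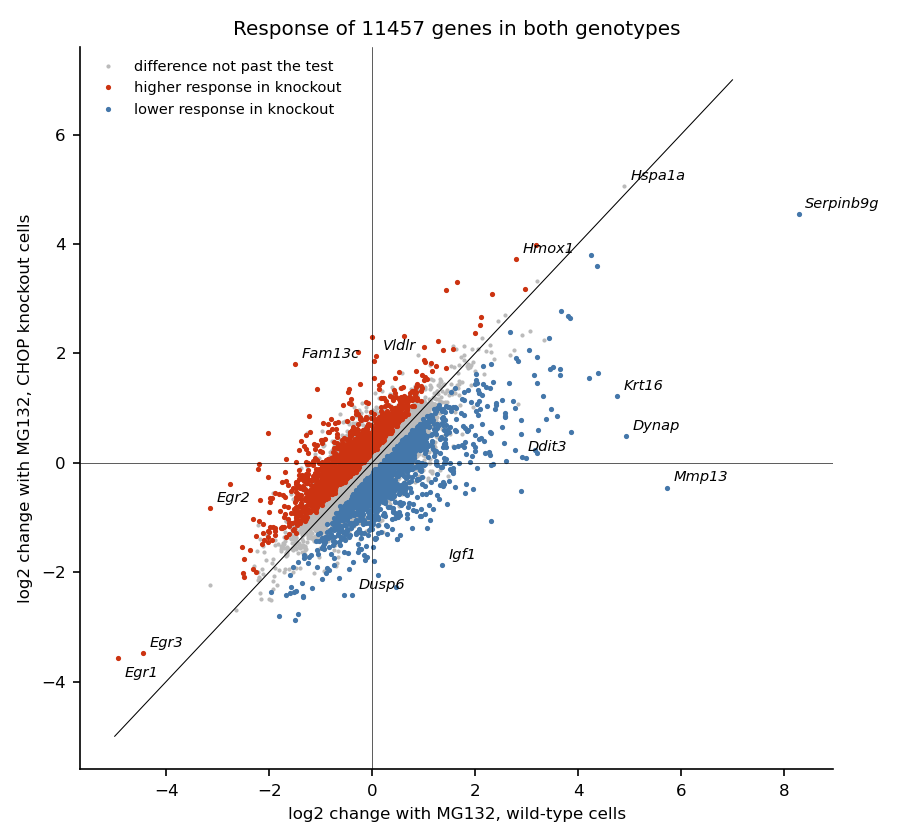
Each point is a gene, with its log2 change with MG132 in wild-type cells on the horizontal and in knockout cells on the vertical axis. Red and blue genes passed the test of the difference, with a higher or lower response in the knockout, and the diagonal marks equal responses. Mmp13 and Ddit3 lie far to the right near 0 on the vertical axis, and Serpinb9g rose in both.

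The widest gaps lay in genes that rose in wild-type cells. Mmp13, a collagenase, lay at 20.6, 4.00, 20.2 and 13.7 untreated and 3.33, 7.72, 2.74 and 9.99 treated in the knockout, near the background, and at 16.9, 40.1, 9.23 and 19.2 and 1655, 1878, 2228 and 1841 in wild-type cells (difference -6.19, SE 0.40, adjusted p = 1e-09). Dynap had 291, 271, 249 and 266 and 479, 369, 359.7 and 342 in the knockout (difference -4.45), and Krt16, an epidermal stress keratin, 8.02, 37.0, 67.4 and 30.6 and 86.4, 93.7, 93.7 and 104 (difference -3.53). Mmp13 passed the filter on low signals only through the treated wild-type arrays, and Krt16 needed them to pass. The differences of Mmp13 and Krt16 are therefore partly fixed by the filter. Serpinb9g, a protease inhibitor of the serpin family, rose in the knockout from 20.1, 11.3, 21.7 and 9.94 to 845, 675, 785 and 591, a change of 4.55 (SE 0.16), and still -3.74 short of wild-type. Its cluster holds close paralogs that may share its probes.

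NF-kB genes rose in 13 of 22 members and fell in 5 (median 0.60). A lower response than in wild-type cells was found in 13 and a higher one in 4 (14.1% of all genes each way). The chemokines Cxcl10 and Ccl2 rose by 2.06 and 1.76, with differences of -0.98 and -1.76 (adjusted p = 0.00036 and 1.3e-08). These differences go with higher untreated signals in the knockout. Ccl2 lay at 2876 to 3042 untreated and 9549 to 10639 treated in the knockout, and at 285 to 470 and 4229 to 4933 in wild-type cells. Treated Cxcl10 overlapped between the genotypes. Tnfaip3 (A20), an inhibitor of the pathway, was -0.39 in knockout and 0.97 in wild-type cells.

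Other genes had a higher response in the knockout. Fam13c had 138, 145, 131 and 105 untreated and 489, 508, 464 and 496 treated (change 1.80, SE 0.15), against -1.50 in wild-type cells (difference 3.30, adjusted p = 9.5e-10). Of 20 contractile and cytoskeletal genes 3 rose and 8 fell (median -0.13). In 11 the response was higher than in wild-type cells and in 0 lower (14.1% of all genes each way). By quantile normalisation 2 rose and 14 fell (median -0.24), and with centring on tested genes 7 rose and 5 fell (median 0.01). Among the 11 Tagln, an actin-binding protein of smooth muscle, was -0.28 (-0.14 and not past the test with centring on tested genes) against -1.31, and Acta2 -0.14 (0.00 with centring on tested genes) against -0.69.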

How the data were processed

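Biotin-labelled RNA was made from total RNA with an Affymetrix 3' kit, per the labels. The authors deposited linear signal intensities, 1 per probe set and array, summarised with MAS5 per the submitters' processing notes, and no version or setting was found there. Each array had a mean of 1000 after trimming 2% of values at each end. No detection calls were used.

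Of 45101 probe sets 34945 named 1 gene. Each gene was represented by the one with the highest mean log2(signal + 16) over 16 arrays and was tested when above the array median on at least 4 arrays. Linear models were fitted over all 16 arrays with limma 3.58.1 in R 4.3.3 (4 group coefficients, 12 residual degrees of freedom, variance trend, two-sided, BH adjusted p under 0.05). The script was tested on simulated data. Arrays were not paired in this fit. Deviations of knockout arrays with the same replicate number correlated weakly, at 0.0243 to 0.140, though all 4 treated ones matched their own number best. A replicate block was therefore among the alternatives.

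The members and the 64 gene lists (1434 entries, of which 98 had no single-gene probe set and 1252 were tested) were chosen with earlier results of these data known. Genes named are the 20 largest rises and falls without overlap between groups, Ddit3, the 10 largest differences in each direction, the 10 highest signals among genes changed at least 2-fold in each direction, and, per list, up to 6 with the largest change, up to 3 against the majority and up to 3 not past the test. Acta2, Birc5, Canx, Col1a2, Creld2, Ddit4, Dnajc3, Dusp1, Ero1b, Hsp90aa1, Hsp90b1, Hspa8, Id3, Mdm2, Nr1d1, Nupr1, Prrx1, Rbfox3, Tagln, Tnfaip3, Tnfrsf10b, Trib3, Vars, Vbp1 and Vcp were chosen after their values were seen. Promoter letters are from RefSeq, build GRCm38.p6. Alternatives were the pseudocount, the filter, the scaling, the probe set rule, the variance trend, a replicate block, a fit of the knockout arrays alone and leaving out each array. Centring on the median of tested genes was added after seeing the data.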

Additional observations from a re-analysis of the deposited data

Results flagged for a closer look

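5 of 128 sets of 4 knockout arrays held a value set apart from the other 3 by Dixon's test, which flags about 1 set in 20 by chance. Vldlr was 309.69 on untreated array 2, against 453.31 to 458.9 on the others. Egr1 was 601.69 on treated array 4, against 692.2 to 705.18, and Adamts5 was 638.15 on treated array 2, against 535.16 to 551.17. Angptl7 was 26.331 on treated array 2, against 14.834 to 16.752, near the background. The upper quartile of the signals was 812.52 on treated array 2, against 788.99 to 792.76.

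The test of the difference between both responses, knockout minus wild-type, gave values of at least 2 on the log2 scale for 20 of the 60 genes checked. Lower in the knockout were the matrix and epidermal genes Mmp13 at -6.1894, Krt16 at -3.5331, Cdsn at -3.4112, Krtap1-5 at -3.3674 and Krt25 at -2.9343. Dynap gave -4.4464, Serpinb9g -3.7442, Car6 -3.2962, Igf1 -3.2337, Prl8a9 -3.0308, Dusp6 -2.0353 and the deleted gene Ddit3 -2.8077. Higher in the knockout were Fam13c at 3.2958, Lrrtm3 at 2.5623, Bcl11b at 2.4211, Angptl7 at 2.3820, Egr2 at 2.3182, Clba1 at 2.2991, Gjb5 at 2.1767 and Carns1 at 2.1082. Mean signals were under 40 in both knockout groups for Lrrtm3, Gjb5, Mmp13, Krt25, Prl8a9, Angptl7 and Car6, near the background. Mmp13, Krt25 and Prl8a9 passed the filter only through the treated wild-type arrays, and Gjb5 only through the untreated wild-type arrays. Krt16 and Car6 also needed the treated wild-type arrays to pass, and Lrrtm3 and Bcl11b the untreated wild-type ones. Their differences are therefore partly fixed by the filter. Bcl11b gave a knockout change of 1.34 that was 0.27 and not past the test when its probe sets were averaged.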

How the results depend on the processing

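The counts of genes that rose or fell in knockout cells kept within 1.5 times the values reported under every alternative run, except 1: with centring on the median of tested genes, added after seeing the data, 403 genes fell at least 2-fold instead of 638. That setting and centring on all probe sets raised the median of all genes by 0.14 and 0.04. The count of genes with a lower response in the knockout was 712 instead of 1615 under centring on all probe sets, and 2015 under centring on tested genes. Leaving out 1 array gave 2779 to 2849 rises, 4000 to 4105 falls, 330 to 366 and 626 to 656 at least 2-fold, and 1465 to 1639 higher and 1483 to 1675 lower responses. The replicate block gave 3031 rises and 4289 falls, and 1755 and 1729 differences. Every one of the 4 treated knockout arrays matched its own number best, a hint from the data and not from the design. The directions of Gas5 (-0.9379 without suffixed probe sets), Vim (-0.1749 by quantile normalisation), Acta2 (0.0024 by centring on tested genes) and the Egr3 difference (-0.1058 by averaged probe sets) reversed. The cause of these changes was not tested. Signals near the background limit the low genes, since no detection calls were used.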
